A study of Rattus norvegicus with 4 samples.

Results

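Nocturnin, the product of Noct, and the transcription factors and enzymes through which the circadian clock reaches its target genes were followed in rat liver. Of 10 listed genes, 8 had a probe in the platform annotation, with 13 probes in all, out of 12463 genes named on the array. These were Noct, Dbp, Tef, Nfil3, Bhlhe40, Bhlhe41, Npas2 and Usp2; the expression of Hlf and Ciart was not analysed here. The genes were selected on the measured difference of Noct between the groups, with the results known, so the differences between the groups are given as a description, with no test of the members.

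All 4 livers came from male Otsuka Long-Evans Tokushima Fatty (OLETF) rats, which grow obese and turn diabetic without a special diet. They were killed at 55 weeks, having fasted for 16 h. In the thiamine group, 2 rats had drunk water with 0.2% thiamine (2 g per L, vitamin B1) for 51 weeks from 4 weeks of age. In the untreated group, 2 rats had drunk water without added thiamine. Lights were on from 6 to 18 o'clock for all rats, and no source used here gives the hour at which each rat was killed. Each rat was put on its own 1-colour CodeLink array, a glass slide with 1 short probe per spot. The study kept 8 rats per group, 2 to a cage, and 2 per group were measured, so that the number of animals limits the precision.

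In the liver, the activators CLOCK and BMAL1, or NPAS2 in place of CLOCK, bind E-boxes in the genes of their own repressors, the period and cryptochrome proteins, and so close a daily feedback loop. The same activators switch on the output factors DBP, TEF and HLF, related leucine zipper proteins that bind a second element, the D-box, while NFIL3 represses from that element. BHLHE40 and BHLHE41 compete for E-boxes. Nocturnin is a rhythmic enzyme of the deadenylase family that removes a phosphate from NADP(H), and mice without it resist obesity on a fatty diet.

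The sequence just before the start of Noct is shown because the results turn on this gene, and those of Tef, Bhlhe40 and Bhlhe41 because a perfect E-box was found there. All are RefSeq promoter sequences of build GRCr8 from the gene's own strand; capitals mark the E-box, and the Noct stretch has none. For Noct the 250 bases before the start lie at chr2:137421824-137422073 on the plus strand, and for the others 40 bases around the E-box are given, at chr7:115206612-115206651 (Tef, plus strand), chr4:143174213-143174252 (Bhlhe40, plus strand) and chr4:180569381-180569420 (Bhlhe41, minus strand).
Noct: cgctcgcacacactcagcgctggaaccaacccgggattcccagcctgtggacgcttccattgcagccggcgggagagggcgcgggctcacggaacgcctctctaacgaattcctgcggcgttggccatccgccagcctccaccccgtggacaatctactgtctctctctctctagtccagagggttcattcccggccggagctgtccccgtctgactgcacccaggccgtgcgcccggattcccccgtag
Tef: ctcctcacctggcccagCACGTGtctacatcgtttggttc
Bhlhe40: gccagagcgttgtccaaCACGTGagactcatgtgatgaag
Bhlhe41: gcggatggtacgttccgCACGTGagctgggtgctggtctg

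Windows of 300 bases, from 250 before to 50 after the start, were searched on both strands for 9 of the 10 listed genes. The E-box CACGTG occurred in 4 of them (Bhlhe40, Bhlhe41, Ciart and Tef) and in 6.42% of all 33469 windows. It began 198 bases before the start in Tef, 220 in Bhlhe40 and 48 in Bhlhe41, and Ciart, a repressor of CLOCK and BMAL1, held 3 copies, 93, 35 and 21 bases before its start. The D-box as TTATGTAA (0.893% of all windows) or TTACGTAA (0.12%), the cyclic AMP element TGACGTCA (1.83%) and the core of the ROR and REV-ERB element as AAGGTCA (4.61%) or TAGGTCA (2.63%) were in none of the 9 windows. A motif match describes the letters of this window and nothing about binding.

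Values below are log2 of the background-corrected and normalized intensity of a spot, and a difference of 1 is 2-fold. Noct was at 9.50 and 8.59 in untreated rats 1 and 2 and at 10.11 and 11.30 in thiamine rats 1 and 2. As background-subtracted intensities before normalization, the same spots read 611, 299, 1111 and 2560. Both thiamine livers were above both untreated livers, and the groups did not overlap. The difference was 1.66 ± 0.37 (thiamine less untreated, moderated SE, n = 2 per group), or 3.15-fold, where the moderated SE is drawn by the fit towards the spread over all probes. It was the largest positive difference among 8985 genes and the third largest among the 18664 probes that passed the filter on dim spots.

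Noct also differed widely within each group. Thiamine rat 2 exceeded thiamine rat 1 by 1.19, or 2.28-fold, a gap larger than that of 99.7% of probes. Untreated rat 2 was below untreated rat 1 by 0.91, with 98.0% of probes showing a smaller gap. The thiamine rat with the lower level was 0.61 above the untreated rat with the higher level, less than the gap within either group. Leaving out thiamine rat 2 brought the difference between the groups to 1.07, and leaving out untreated rat 2 to 1.20. It came to 2.24 with thiamine rat 1 left out, and to 2.12 with untreated rat 1 left out.

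**Figure D1:**
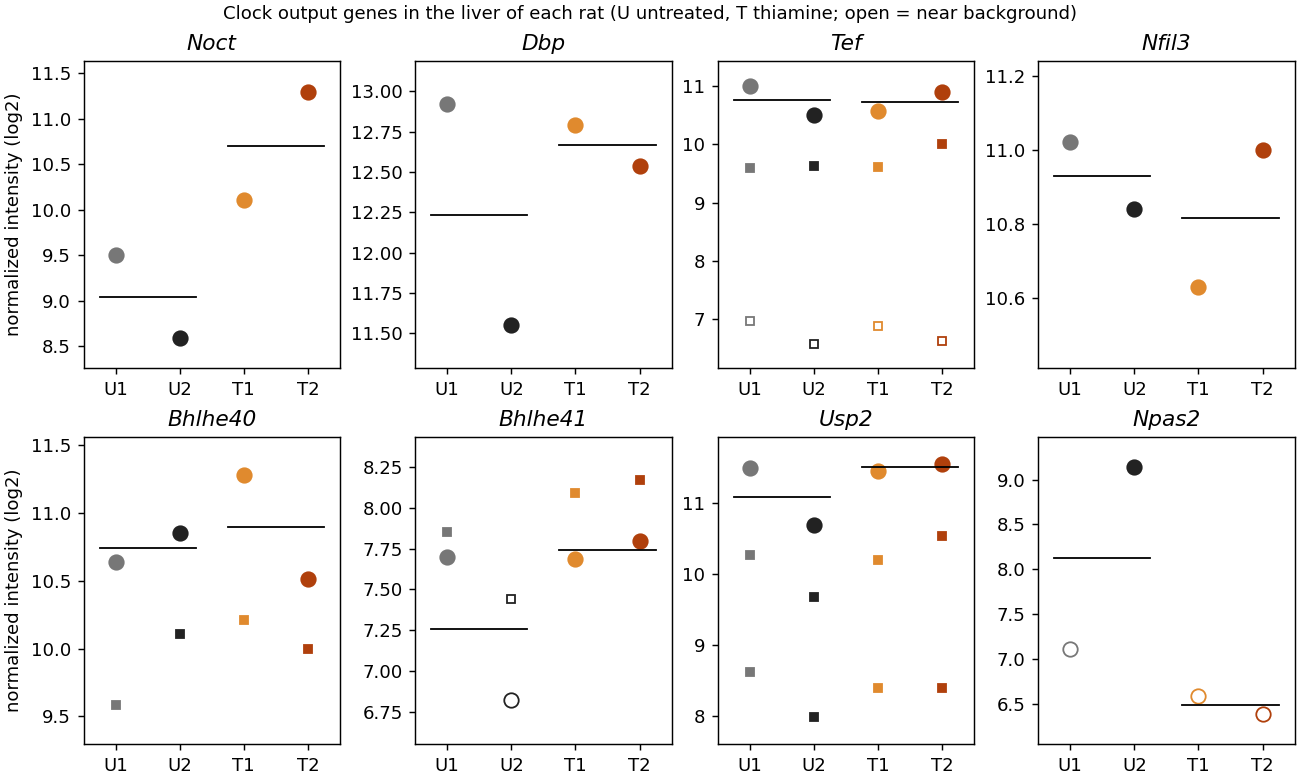
Normalized intensity (log2, a separate vertical scale per gene) of each gene in untreated rats 1 and 2 (U1, U2) and thiamine rats 1 and 2 (T1, T2). Large circles are the probe that represents the gene, or the only one for Npas2, and small squares its other probes. Lines are the mean of 2 rats, and open symbols spots near background. Noct is the 1 representing probe with both thiamine rats above both untreated rats. On the representing probes untreated rat 2 is lowest for Noct, Dbp, Tef, Bhlhe41 and Usp2, but not on the second probe of Tef.

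The output activators of the D-box did not share this separation. Dbp, whose messenger has one of the widest daily swings in liver, was at 12.92 and 11.55 in untreated rats 1 and 2 and at 12.79 and 12.54 in thiamine rats 1 and 2. Untreated rat 2 was low and the other 3 livers lay close together, so the groups overlapped. The difference between the groups was 0.43 ± 0.35. Leaving out untreated rat 2 turned it to -0.26, and leaving out untreated rat 1 made it 1.12. Within the untreated pair the gap was 1.37, or 2.59-fold, larger than that of 99.6% of probes.

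Tef, a close relative of Dbp, was at 11.01 and 10.50 in untreated rats 1 and 2 and at 10.57 and 10.90 in thiamine rats 1 and 2 on its brightest probe. The groups overlapped, with a difference of -0.02 ± 0.22. A second probe had 9.59 and 9.62 in the untreated and 9.61 and 10.01 in the thiamine rats, a difference of 0.21 ± 0.20, and the third was near background on all 4 arrays. The probes of Tef therefore do not give 1 direction, and the sign on the brightest probe also turned with the array left out, from -0.28 without untreated rat 2 to 0.24 without untreated rat 1.

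Among the repressors, Nfil3, which opposes DBP and TEF at the D-box, was at 11.02 and 10.84 in untreated rats 1 and 2 and at 10.63 and 11.0 in thiamine rats 1 and 2. The groups overlapped, and the difference of -0.12 ± 0.20 was smaller than the gap of 0.36 between the thiamine rats; it was 0.06 without thiamine rat 1. Bhlhe40, a repressor at E-boxes that also answers to feeding and hypoxia, was at 10.64 and 10.85 in untreated and 11.28 and 10.51 in thiamine rats 1 and 2, and the groups overlapped. Its difference was 0.15 ± 0.25, or 0.26 ± 0.21 on its other probe. Here thiamine rat 1 was the highest and thiamine rat 2 the lowest liver on the brighter probe, with a gap of 0.77. The difference accordingly took either sign, -0.23 with thiamine rat 1 left out and 0.54 with thiamine rat 2 left out.

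Bhlhe41, the paralogue of Bhlhe40, was a dim signal at 7.70 and 6.82 in untreated rats 1 and 2 and 7.69 and 7.80 in thiamine rats 1 and 2. Untreated rat 2 was near background and below the other 3 rats, which lay within 0.11 of each other. It passed the filter through the thiamine group alone. The difference was 0.49 ± 0.26, and came to 0.05 with untreated rat 2 left out and to 0.94 with untreated rat 1 left out. With the deposited value table it was 0.82. A further probe, named through its RefSeq accession and so outside the rule, read 7.85 and 7.44 in the untreated and 8.09 and 8.17 in the thiamine rats, with no overlap, and was near background in untreated rat 2 as well.

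Usp2, a deubiquitinating enzyme with a strong daily rhythm in many tissues, was at 11.49 and 10.68 in untreated rats 1 and 2 and at 11.44 and 11.55 in thiamine rats 1 and 2. Again untreated rat 2 was low and the other 3 livers were close together. Its 3 probes gave 0.41 ± 0.25, 0.39 ± 0.23 and 0.09 ± 0.22, and untreated rat 2 was the lowest liver on each. Without untreated rat 2 the brightest probe differed by 0.004, and without untreated rat 1 by 0.81.

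Npas2, which can take the place of CLOCK, did not pass the filter, because it was above background on 1 of the 4 arrays. It was at 9.14 in untreated rat 2 and near background at 7.11 in untreated rat 1 and at 6.59 and 6.39 in thiamine rats 1 and 2. Within the untreated pair it was at least 3.68-fold higher in rat 2, taking the lowest signal above background on the array of untreated rat 1 as the limit. No fold between the groups is given, since 1 of the 2 untreated arrays measured it.

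**Figure D2:**
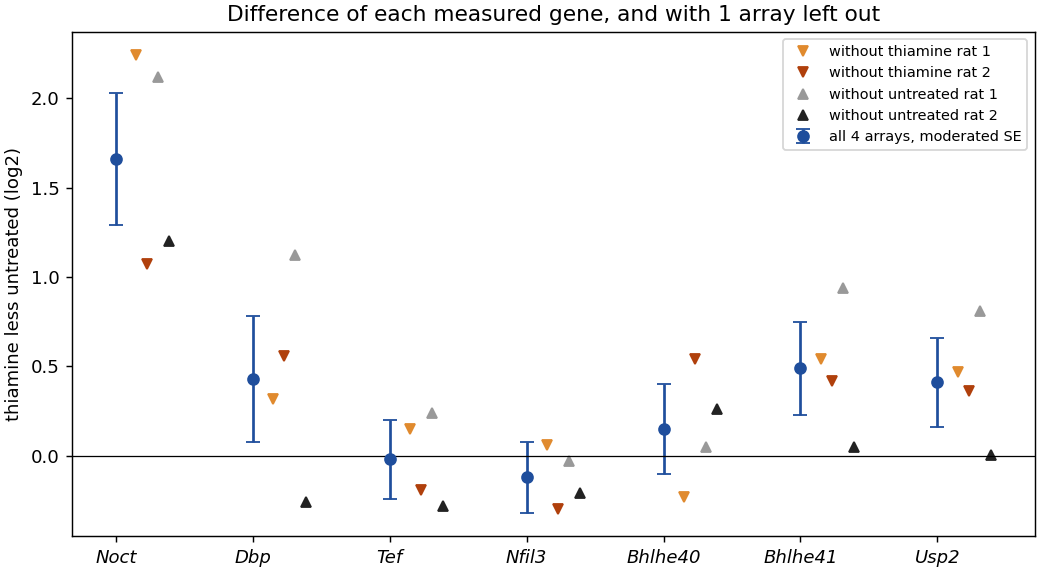
Difference in log2 intensity, thiamine less untreated, of the 7 genes that passed the filter. Circles are all 4 arrays with the moderated SE as bars, and triangles the values with 1 array left out; Noct stays above 1 throughout, whereas Dbp, Usp2 and Bhlhe41 lie at -0.26, 0.004 and 0.05 without untreated rat 2.

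Of the 10 listed genes 7 passed the filter, 5 with a higher and 2 with a lower mean in the thiamine group, and their median difference was 0.41, beside 0.01 over all probes tested. Without Noct the median of the other 6 was 0.28. Bhlhe41 passed the filter through the thiamine group alone. Without it as well, the remaining 5 had a median of 0.15, with 3 higher and 2 lower. The median of all 7 also rested on 1 rat. It was 0.004 without untreated rat 2, with 4 genes higher and 3 lower, and 0.81 without untreated rat 1. Groups that did not overlap were found for 1 of the 7, Noct, and for 36.1% of all probes. After Benjamini-Hochberg adjustment over all 18664 probes, limma called 0 of them at the threshold of 0.05 (0%), members included. At an unadjusted p under 0.05 there were 1260, or 6.75% of all probes. At least 2-fold apart with no overlap were 74 probes, or 0.396%, of which 44, or 0.236% of all probes, were higher with thiamine; Noct is 1 of these. An exact permutation test of 2 rats against 2 cannot give a p below 0.333.

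The gap between the rats of a group is given without Noct, on whose difference the selection rests, and without Bhlhe41, which was near background in untreated rat 2; the remaining 5 genes are Dbp, Tef, Nfil3, Bhlhe40 and Usp2, a choice made after the values were seen. Their median gap was 0.52 in the untreated pair and 0.34 in the thiamine pair, or 0.81 and 0.34 with all 7 genes. Over all probes it was 0.22 and 0.16, in the list of rhythmic liver genes described further on 0.60 and 0.31, and in the core clock list 0.27 and 0.09. Rat 2 was the lower of the untreated pair for 4 of the 5 (all but Bhlhe40) and for 52.0% of all probes. Untreated rat 2 had the lowest value of the 4 livers for 3 of the 5, namely Dbp, Tef and Usp2, compared with 25.6% of all probes. On the brightest probe of each of the 5, the gap within the untreated pair was wider than the difference between the groups. The same held for 63.2% of all probes. The counts for the 5 genes rest on their brightest probes. On the second probe of Tef the untreated gap was 0.03 and the difference 0.21, and untreated rat 1 was the lowest liver. For Bhlhe41, with the near-background spot as read, that gap was 0.88 and the difference between the groups 0.49. With that spot set to the lowest signal above background on its array, the gap was 0.46, which is its lower limit. The difference of 0.49 uses the same spot as read and would become smaller too, so it is not to be set against 0.46. These genes share regulators and arrays, so their gaps are not independent of each other.

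**Figure D3:**
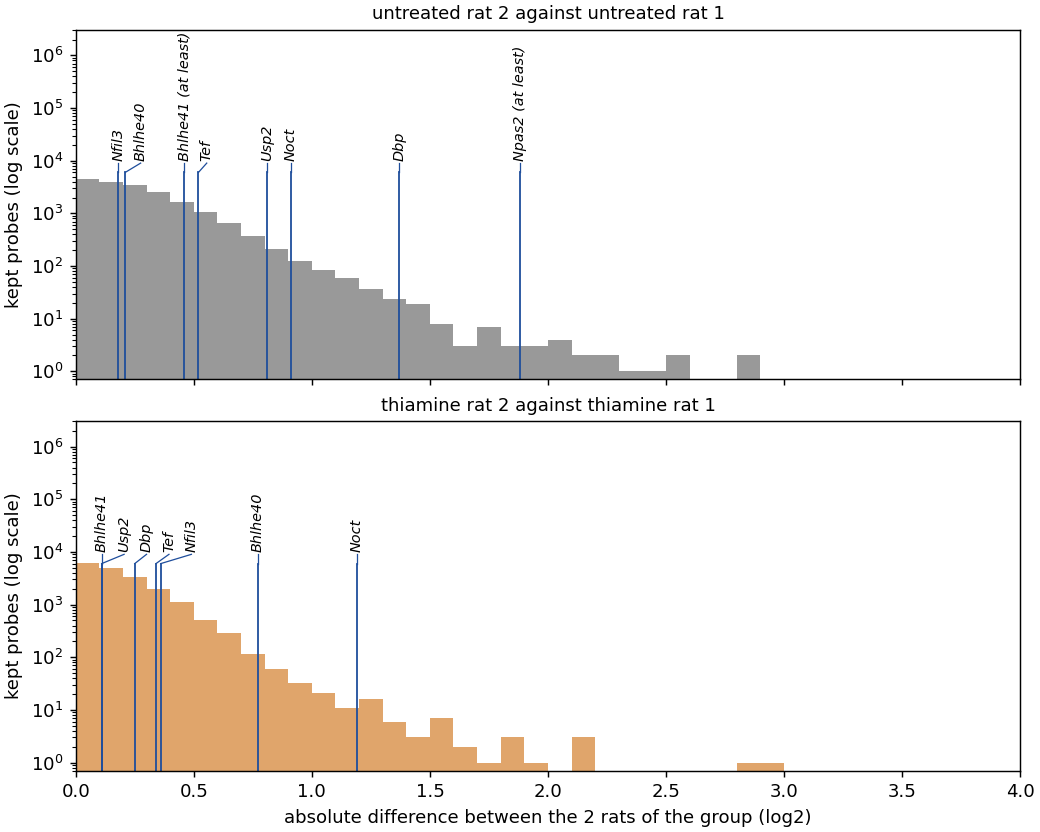
Number of probes (log scale) by the absolute difference in log2 intensity between the 2 rats of the untreated group (top) and of the thiamine group (bottom), with lines at the clock output genes. In the untreated pair Bhlhe41 and Npas2 (not past the filter) are drawn at the smallest gap their dim spots allow, at least 0.46 and at least 1.88, and Dbp lies at 1.37; in the thiamine pair Noct lies at 1.19, and Npas2, near background in both rats, is left out.

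In the core clock list, with the loop genes themselves, 14 of 18 genes were measured. Of these, 8 were higher and 6 lower with thiamine, and the median difference was 0.06. None passed over all probes with limma. At an unadjusted limma p under 0.05 there were 3 higher and 2 lower of the 14, beside 6.75% of all probes. The 5 that were furthest apart by that p were Per2 (0.79 ± 0.19), Cry1 (0.83 ± 0.21), Bmal1 (-1.0 ± 0.30), Per1 and Nr1d1 (-0.45 ± 0.18). For Per1, near background in both untreated livers, the thiamine level was at least 1.41-fold that of the untreated. Per1 passed the filter through the thiamine group alone and counts among the 8 higher genes and the 3 at that p. The others higher at that p were Per2 and Cry1. A second probe of Per2 differed by 0.10.

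Bmal1, the obligate partner of CLOCK and NPAS2, was, like Npas2, highest in untreated rat 2. It was at 8.44 and 9.59 in untreated rats 1 and 2 and at 8.04 and 7.98 in thiamine rats 1 and 2, and untreated rat 2 stood 1.14 above untreated rat 1, a gap larger than that of 99.2% of probes. Its difference between the groups came to -0.43 with untreated rat 2 left out and to -1.58 with untreated rat 1 left out. Untreated rat 2 was thus the liver lowest in Dbp and highest in Npas2 and Bmal1. Over the 14 measured core clock genes it was the lowest liver for 6 and the highest for 2, beside 25.6% and 24.2% of all probes. Per2, a repressor of the loop, was at 11.71 and 11.41 in the untreated and 12.41 and 12.29 in the thiamine rats on its brightest probe. There its gap of 0.30 within the untreated pair was smaller than its difference between the groups. On its second probe it was at 8.01 and 7.45 in the untreated and 7.84 and 7.81 in the thiamine rats. The groups overlapped there, and the untreated gap of 0.56 was wider than the difference of 0.10.

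**Figure D4:**
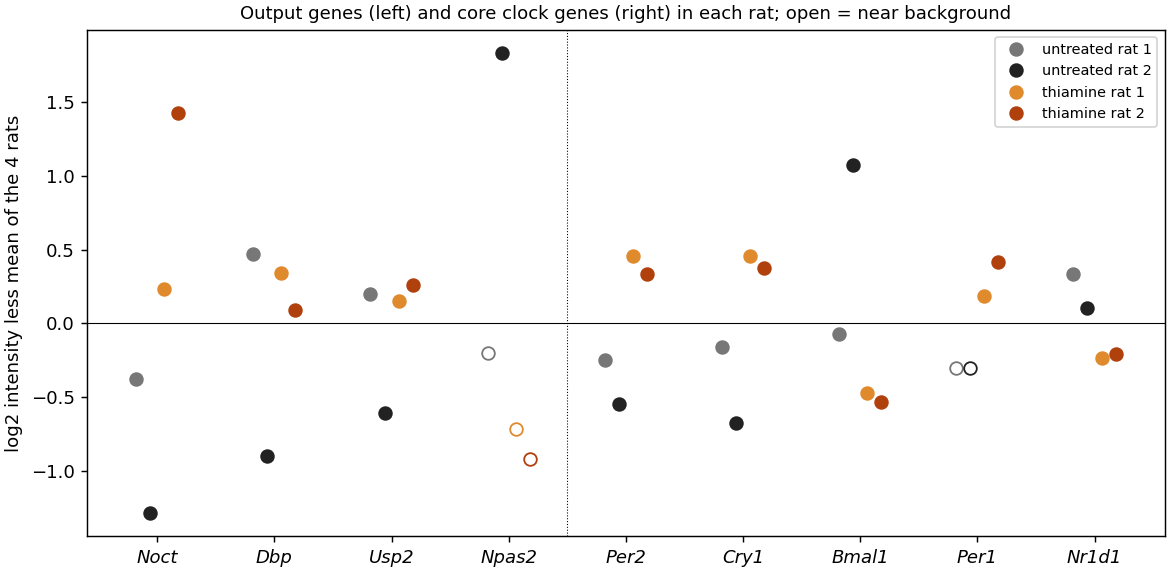
Log2 intensity of 4 output genes and 5 core clock genes in each rat, less the mean of the 4 rats, with open symbols near background. Untreated rat 2 (black) is the lowest liver for Noct, Dbp and Usp2 and the highest for Npas2 and Bmal1. Per2 (brightest probe) and Cry1 are higher in both thiamine rats than in both untreated rats. The second probe of Per2, on which the groups overlap, is not drawn.

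A list of rhythmic liver genes, among them targets of DBP, TEF and HLF, had 20 of 24 genes measured. With thiamine 13 were higher and 7 lower, and the median difference was 0.09. None passed over all probes with limma. An unadjusted limma p under 0.05 was found for 5 higher and 1 lower of the 20, beside 6.75% of all probes. Among those furthest apart were Por, which passes electrons from NADPH to the P450 enzymes (1.29 ± 0.18), the cell cycle kinase Wee1 (1.0 ± 0.24) and Alas1 of haem synthesis (0.73 ± 0.27). Without untreated rat 2, Wee1 was at 0.61, and without untreated rat 1 Alas1 was at 0.30. A second measured probe of Wee1 differed by 0.30 as read. That probe was near background in both untreated rats and passed the filter through the thiamine group alone.

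Some genes of this list were chosen after their values were seen, for their gap within the untreated pair. Nampt, the enzyme that salvages NAD and a target of CLOCK and BMAL1, was at 12.65 and 11.18 in untreated rats 1 and 2 and at 12.20 and 11.67 in thiamine rats 1 and 2. Cyp7a1, the rate-limiting enzyme of bile acid synthesis, was at 12.18 and 10.79 in the untreated and 11.38 and 11.83 in the thiamine rats. Both were lowest in untreated rat 2 and had group means within 0.12 of each other. Fgf21, a fasting hormone of the liver, was at 10.65 and 12.97 in the untreated and 12.73 and 12.70 in the thiamine rats, so that here untreated rat 1 was the low liver. Fgf21 and other genes of the list were highest in untreated rat 2. Insig2, which holds back the processing of sterol regulatory factors, was at 12.62 and 13.66 in the untreated and 12.90 and 13.29 in the thiamine rats. Tfrc, the transferrin receptor, was at 10.43 and 11.43 in the untreated and 10.17 and 10.72 in the thiamine rats. Over the 20 measured genes untreated rat 2 was the lowest liver for 8 and the highest for 9, beside 25.6% and 24.2% of all probes. A gap above 1 within the untreated pair was found for 5 of the 20, beside 1.39% of all probes.

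Of the deadenylases and cofactors related to nocturnin, 15 of 18 listed genes were measured. With thiamine 7 were higher and 8 lower, and the median difference was -0.04. None passed with limma, and 1 of the 15, lower, had an unadjusted limma p under 0.05, beside 6.75% of all probes. This was Cnot6l, a catalytic subunit of the CCR4-NOT complex (-0.42 ± 0.18). The next were Btg1 (-0.31 ± 0.18, and -0.53 ± 0.19 on its other measured probe), Angel2 (0.28 ± 0.19), Cnot2 (0.27 ± 0.18) and Cnot7 (-0.22 ± 0.19). Groups that did not overlap were found for 2 higher and 3 lower genes of the 15, beside 36.1% of all probes. The median gap was 0.11 within the untreated pair and 0.17 within the thiamine pair.

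Genes with the pattern most like that of Noct were taken as those with the smallest Euclidean distance over the 4 arrays, after the untreated mean was subtracted, among 8976 other genes. With 4 arrays many genes come close, and the order is a description. The nearest was Vstm4, at a distance of 0.61, with 8.54 and 7.61 in untreated rats 1 and 2 and 9.15 and 9.71 in thiamine rats 1 and 2. Por (1.04), the serine dehydratase Sds (1.06), the small heat shock protein Hspb1 (1.07) and the integrin subunit Itga9 (1.18) followed. Of the output genes Bhlhe41 came at rank 173, Usp2 at 229, Dbp at 379, Tef at 3037, Nfil3 at 5098 and Bhlhe40 at 5461. Bhlhe41 passed the filter through the thiamine group alone and was near background in untreated rat 2. Since the untreated mean was subtracted, a small distance goes with a group difference like that of Noct, on which the selection rests.

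RNA was taken from pieces of whole liver, so fewer cells of a type and less RNA per cell cannot be told apart. The hepatocyte markers summed to between 179736 and 188406 in the thiamine and 188078 and 188750 in the untreated livers (normalized intensity, 9 of 10 measured, 2 higher and 7 lower with thiamine), so the labelled tissue expressed its defining markers. Of the 9, 4 (Alb, Serpina1, Tf and Ttr) were saturated on all 4 arrays, which limits what this sum can show. Markers of Kupffer cells, the macrophages of the liver, were higher with thiamine for 9 of 9 measured of 13 listed. They summed to 29062 and 20203 in thiamine rats 1 and 2 and to 19734 and 12800 in untreated rats 1 and 2, with Lyz2 near background. Endothelial markers were higher for 6 of 6 and summed to 6013 and 5348 in the thiamine and 4262 and 4082 in the untreated rats. Both sums were highest in thiamine rat 1 and Noct in thiamine rat 2, and both sums and Noct were lowest in untreated rat 2. Their part in the difference of Noct was not tested.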

How the data were processed

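The 4 arrays, 1 per rat liver, were scanned with CodeLink Expression Analysis 5.0.0.31312, per the file headers. The deposited reports give the spot mean, the local background and their difference as an intensity on a linear scale, with quality flags. The deposited value table holds normalized intensities; the sources used here do not say how the authors made it. Groups came from the labels.

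Spot mean and background were corrected with normexp (offset 50), control spots left out, and log2 values of 33849 probes quantile normalized. Masked spots were missing. Between 18176 and 20071 probes were above background per array. The 18664 probes kept had both arrays of the thiamine or of the untreated group above background. The platform annotation, updated through gene identifiers to GRCr8 RefSeq symbols, named 16742 probes, and RefSeq accessions 367 more; 165 had several symbols, 11 had sources that conflict and 16564 had no symbol, and these carry no name here. The brightest kept probe stands for a gene, among annotated probes for the members. The comparison used limma 3.58.1 (R 4.3.3; lmFit, eBayes, two-sided, Benjamini-Hochberg over kept probes, threshold 0.05), after a check on simulated data. The labels do not say whether the 2 rats of a group shared a cage.

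All 10 members, 7 of which passed, and up to 5 genes of each list by the smallest unadjusted p are named; certain list genes counted in the totals are not reported here by name. Members and lists were chosen with earlier results of these data known. Alternatives covered background, offset, scaling, filter, flagged spots, the deposited table, probes averaged, the replicate block and each array left out. Each array was its own slide, so slide could not be a block.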

Additional observations from a re-analysis of the deposited data

How the results depend on the processing

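The difference of Noct kept its direction under 9 other settings with all arrays, between 1.66 and 1.79, and with 1 array left out, between 1.07 and 2.24. The settings for filter, flagged spots, replicate block and averaged probes could not move it from 1.66. It was 1.79 with background-subtracted intensity, 1.73 with the smaller offset, 1.67 with median scaling and 1.79 with the deposited table. The median of the measured members ran from 0.004 to 0.81 with 1 array left out, and was 0.28 with only probes above background on all arrays, which removes Bhlhe41. With 1 array left out the sign turned for Dbp, Tef, Nfil3 and Bhlhe40, and for Tef also with its probes averaged (0.09) and by median scaling (7e-05). The gap of Dbp within the untreated pair lay between -1.42 and -1.31 under 4 settings added after the data were seen. Limma called 0 probes under 7 other settings with all arrays, 126 with the replicate number as a block, where 1 residual degree of freedom is left, and between 1 and 50 with 1 array left out, where the spread comes from the group with 2 rats alone. The labels do not say whether same-numbered rats belong together. The correlation of same-numbered deviations over the probes was -0.0737, which cannot decide this, since each group gives 1 such deviation per probe. The dim signals of Bhlhe41 and Npas2 limit what can be said of their size.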
